A study of Mus musculus with 2 samples.

Results

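Tubulins are the building blocks of microtubules, and a group of enzymes writes, erases or otherwise acts on the chemical marks they carry. The set described here held the α-, β-, γ-, δ- and ε-tubulin genes, the Ttl and Ttll ligases, the carboxypeptidases Agtpbp1 and Agbl, the deacetylase Hdac6, the Tppp proteins and the folding cofactors Tbca to Tbce. A probe belonged to it when its gene name in the array file, or the current symbol of its transcript, was one of these, and γ-tubulin complex genes (Tubgcp) were left out. This gave 45 genes with 78 probes, of 27597 genes with 41174 probes on the array.

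The RNA came from the lung lobes of a homozygous and of a heterozygous Foxj1lacZ mouse embryo, both male and littermates on an Sv129/CD-1 hybrid background, at E16.5. Foxj1 is a forkhead transcription factor needed for motile cilia, and both embryos carried the lacZ allele, so there was no wild-type lung. Per genotype there was 1 lung, with tissue outside the lobes removed, and 100 ng of RNA from each was amplified and hybridised to 1 two-colour Agilent array. The homozygous RNA was labelled with Cy5 and the heterozygous RNA with Cy3 without a dye swap, so that genotype, embryo and dye cannot be told apart. The samples are titled lung lobes while their source names say epithelium.

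α- and β-tubulin form the dimer of the microtubule wall, γ-tubulin starts new microtubules, and δ- and ε-tubulin belong to centrioles and basal bodies. In cilia the exposed tails of the tubulin dimers carry chains of glutamate or glycine. Ttll enzymes add these residues, Ttl returns a tyrosine to the α-tubulin tail, cytosolic carboxypeptidases shorten the glutamate chains, and Hdac6 removes acetyl groups from α-tubulin. Multiciliated cells of the airway build large numbers of such axonemes and express Foxj1.

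All ratios below are log2 of homozygous over heterozygous, and levels are log2 intensities after background correction and normalization within the array. Each ± gives an error that the scanner software attached to its own log ratio, which is not the ratio printed here. It covers measurement on this array only, without any spread between animals. The background correction used here draws ratios of dim probes towards 0. For dim probes, a printed ratio within this error is therefore partly a product of that correction. With 1 sample per genotype no test was possible, and a gene is called different only when it was at least 2-fold lower or higher. Signals well above background were found in 75.6% of the 43379 transcript spots in the homozygous channel and in 69.0% in the heterozygous channel, and 0 spots were saturated. Repeated spots of 1 probe had a median SD of 0.044 in their log2 ratios (212 probes), and different probes of 1 gene a median SD of 0.157 (7144 genes). Foxj1 itself stood at 7.61 in the homozygous channel against 9.53 in the heterozygous channel, a ratio of −1.92 ± 0.30. The position of its probe relative to the lacZ allele was not analysed here, so this value may not check the genotype labels.

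Most tubulin genes and tubulin-modifying enzymes differed little between the 2 lungs. Of the 45 members, 41 gave a signal well above background in 1 or both channels, which is called detected here, and 40 did so in both. For Ttll3, among the 40, this was a different probe in each channel. Tppp3 alone among the 41 passed the 2-fold threshold, being lower in the homozygous lung. Of all 21171 detected genes, 1.88% passed it as lower and 0.576% as higher, so the members' counts of 1 and 0 were near the background. The genes with a log2 ratio of −0.5 or less were Tppp3, Ttll6, Agbl2 and Tuba8, 4 of 41 beside 7.83% of all detected genes, and Tubb5 was the 1 member at 0.5 or more, beside 3.04%. The median ratio of the 41 was 0.02 against −0.0027 over all detected genes, and 14 were below 0, beside 50.4% of all detected genes. The split of 2-fold calls over all genes, 398 lower and 122 higher, depended on the scaling. It was 1143 and 593 with the scanner software's log ratio, and 302 and 724 when the array was only centred on its median in place of loess.

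**Figure D1:**
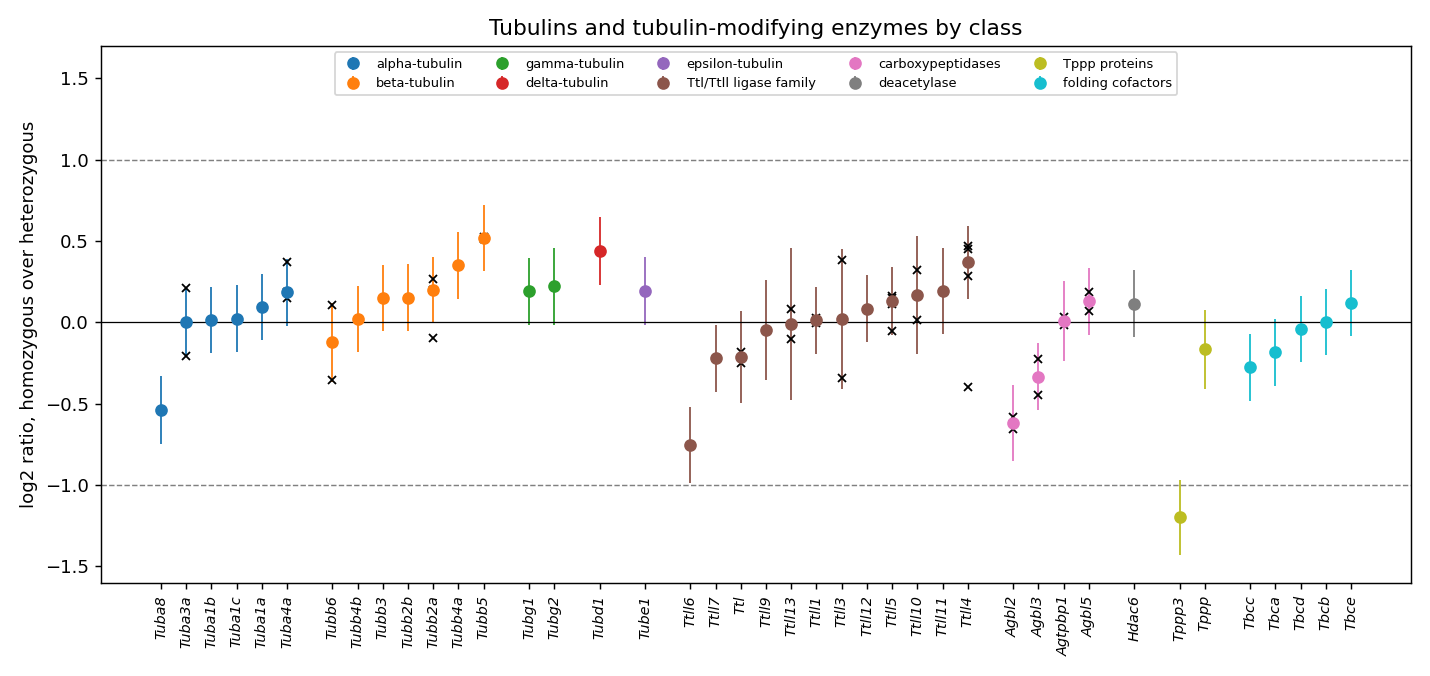
Points give each detected member's log2 ratio of homozygous over heterozygous (vertical axis) by class, bars the scanner software's error, black crosses the single probes of genes with several, and dashed lines 2-fold. Tppp3 at −1.20 lies beyond the lower line, and the other 40 members lie between −0.75 and 0.52.

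Tppp3, a member of the tubulin polymerization-promoting family that binds and bundles microtubules, was the member with the lowest ratio. Its single probe, listed in the array file under the older name 2700055K07Rik, read 10.51 in the homozygous channel against 11.71 in the heterozygous channel, a ratio of −1.20 ± 0.23 or 2.30-fold lower. In the scanner software's own processed intensities the same spot read 777 in the homozygous and 1804 in the heterozygous channel. Among the 1969 detected genes within 0.5 log2 units of its mean intensity, 24 (1.22%) had a ratio as low. Counts among genes of a member's brightness, here and below, include the member itself. With median centring the ratio was −0.65, short of 2-fold. The median of genes of its brightness was 0.54 there and 0.01 as reported, so Tppp3 lay −1.19 from that median under centring and −1.21 from it as reported. Coordinates of probes are on mm8, and their place in exons or untranslated regions was not analysed here. The Tppp3 probe maps to chr8:108356984-108357043 on the minus strand, and its sequence is shown because the only 2-fold call among the members rests on it.
Tppp3: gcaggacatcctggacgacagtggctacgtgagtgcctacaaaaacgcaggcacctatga
The related Tppp, known from myelin-forming cells of the brain, had levels of 7.31 and 7.47 in the homozygous and heterozygous channels and a ratio of −0.16 ± 0.24. Tppp2 was not well above background in either channel.

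The 13 genes of the tyrosine ligase family, 12 of them detected, had a median ratio of 0.02 and 5 were below 0. Ttll6, a polyglutamylase that lengthens glutamate chains and is known from cilia, was the lowest of them. It read 7.45 in the homozygous channel against 8.20 in the heterozygous channel, a ratio of −0.75 ± 0.23 or 1.68-fold lower, from a single probe at chr11:95981455-95981514. Its processed intensities were 69.4 (homozygous) and 134.8 (heterozygous), and 223 of 3614 genes of its brightness were as low. Across the other settings its ratio ran from −0.96 to −0.69.

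Ttll4, another glutamylase, had the highest ratio of the family at 0.37 ± 0.22, but its 4 probes differed in direction. They read 7.86, 9.37 and 8.69 in the homozygous channel against 7.39, 9.08 and 8.24 in the heterozygous channel, ratios of 0.47, 0.29 and 0.45. The last one read 7.49 (homozygous) against 7.88 (heterozygous), a ratio of −0.40. Of 16 members with several kept probes, 9 had probes on both sides of 0, and 2, Ttll4 and Ttll3, had probes more than 0.5 apart.

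Ttl itself was at −0.21 ± 0.28, with both of its probes lower in the homozygous channel. One probe read 9.72 (homozygous) against 9.90 (heterozygous), a ratio of −0.18, and the other had a ratio of −0.25. Ttll1, the catalytic subunit of a glutamylase complex, was at 0.01 and the glutamylases Ttll5 and Ttll7 were at 0.13 and −0.22. Ttll9, Ttll11 and Ttll12 had ratios of −0.05 ± 0.31, 0.19 ± 0.26 and 0.08 ± 0.20. By the scanner software's own log ratio Ttll11 was at 0.59 and Ttl at −0.48, beyond their errors. Ttll9 at −0.11 and Ttll12 at 0.10 were within theirs. Ttll3, which starts glycine chains, was well above background with 1 probe in each channel. One probe was so only in the heterozygous channel (6.50 homozygous against 6.85 heterozygous) and the other only in the homozygous channel (6.89 homozygous against 6.51 heterozygous). Ttll8, the other enzyme that starts glycine chains, was not well above background in either channel, and Ttll10, which lengthens them, was at 0.17 ± 0.36. Ttll13 exceeded background in the homozygous channel alone with both of its probes, which read 6.75 and 6.58 (homozygous) against 6.67 and 6.69 (heterozygous). These ratios of 0.08 and −0.10 had opposite signs within scanner errors of 0.45 and 0.49, and no bound on a fold could be given. By the scanner software's own log ratio the probes were at 0.51, beyond its error, and −0.15.

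Of the 6 carboxypeptidases, 4 were detected. Agbl2, one of the enzymes that shorten glutamate chains, was lower in the homozygous channel with both of its probes. The probe at chr2:90616804-90616863 read 7.45 (homozygous) against 8.03 (heterozygous), and the probe at chr2:90629201-90629260 read 7.69 (homozygous) against 8.34 (heterozygous). Their ratios were −0.58 and −0.66, and the gene value of −0.62 ± 0.23 corresponds to 1.54-fold lower. Among 3541 genes of its brightness 305 were as low, and across the other settings the value ran from −0.85 to −0.54.

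Agbl3, a close relative, had kept probes at 10.82 and 10.81 in the homozygous channel against 11.05 and 11.26 in the heterozygous channel. Their ratios were −0.22 and −0.45, and both lie within 0.128 kb at chr6:34715495-34715622. Its other 2 probes, between chr6:34734816 and chr6:34769553, were not well above background in either channel. Both kept probes were assigned by gene symbol only. The only Agbl3 probe matched to a current RefSeq transcript, at chr6:34769494-34769553, is among those not above background. The gene value was −0.34 as reported and 0.21 under median centring, where it lay −0.32 from the median of genes of its brightness. Agtpbp1, the enzyme lost in Purkinje cell degeneration mice, was at 0.01 ± 0.25 and Agbl5, which removes the glutamate at the branch point, was the highest of the class at 0.13 ± 0.21. The Agbl5 probes read 9.10 and 8.62 in the homozygous channel against 8.91 and 8.55 in the heterozygous channel. Agbl1 and Agbl4 were not detected. The class median was −0.16 as reported and 0.18 with median centring, from 4 genes in each case. Hdac6 read 11.15 (homozygous) against 11.03 (heterozygous), a ratio of 0.11 ± 0.20.

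The promoters of the members were searched for short motifs of 2 factor families known from ciliary genes, with the motifs chosen after the ratios were known. The windows are those of a RefSeq-derived table on GRCm38.p6, from 250 bases before to 50 bases after a gene's start, and 39 members had 46 such promoters. GTTGCC, the half-site bound by Rfx factors, stood on either strand in 12 of the 46 and in 12.5% of all 32851 promoters. TGTTTA, a core of forkhead sites, stood in 4 of the 46 and in 13.4% of all. GTTGCCNNGGCAAC, in which 2 half-sites face each other and which therefore overlaps the first motif, stood in 1 of the 46 and in 0.0944% of all promoters. That 1 was Agbl3, with its first base at −21 from the start. Agbl2 held the half-site at −80 on the strand shown and Tuba8 held it at −36 on the opposite strand, while the Ttll6 window held none of the 3 motifs. The half-site stood in windows of 11 members, and the others with a ratio were Ttll10 (0.17), Ttll5 (0.13), Tuba1c (0.02), Ttll3 (0.02), Agtpbp1 (0.01), Tbcd (−0.04) and Ttll9 (−0.05). As reported, these 7 lay within their scanner errors of 0, and Ttll8 was not detected. By the scanner software's own log ratio Ttll10 (0.40), Ttll5 (0.24) and Tuba1c (−0.30) lay beyond their errors of 0.36, 0.21 and 0.21. The rest of the 7 did not. A match describes letters and not a bound site. The promoters of the 3 carriers with the lowest ratios, for Agbl2 one of 2 in the table, are shown with the matched letters in capitals, at chr6:34780182-34780481 for Agbl3, chr2:90782477-90782776 for Agbl2 and chr6:121210484-121210783 for Tuba8, all on the plus strand.
Agbl3: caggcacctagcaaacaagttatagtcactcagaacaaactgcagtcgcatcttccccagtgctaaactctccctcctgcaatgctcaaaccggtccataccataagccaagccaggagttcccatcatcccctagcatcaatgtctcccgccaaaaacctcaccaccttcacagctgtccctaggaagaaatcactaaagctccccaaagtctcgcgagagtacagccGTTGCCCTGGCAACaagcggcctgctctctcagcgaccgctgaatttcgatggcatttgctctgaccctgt
Agbl2: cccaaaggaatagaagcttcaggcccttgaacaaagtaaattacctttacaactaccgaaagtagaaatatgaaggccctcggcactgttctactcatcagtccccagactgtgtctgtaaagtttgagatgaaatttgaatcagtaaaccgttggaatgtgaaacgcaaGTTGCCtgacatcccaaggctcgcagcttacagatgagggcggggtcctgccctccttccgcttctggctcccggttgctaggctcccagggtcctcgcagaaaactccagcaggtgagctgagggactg
Tuba8: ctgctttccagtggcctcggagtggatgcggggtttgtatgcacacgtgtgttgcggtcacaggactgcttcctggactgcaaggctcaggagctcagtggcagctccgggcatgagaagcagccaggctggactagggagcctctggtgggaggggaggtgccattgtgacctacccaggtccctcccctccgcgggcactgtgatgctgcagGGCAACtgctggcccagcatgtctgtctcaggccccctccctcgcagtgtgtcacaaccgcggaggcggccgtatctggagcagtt

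Among the 6 α-tubulin genes, all detected, Tuba8 was the one below 0. This divergent isotype read 9.13 in the homozygous channel against 9.66 in the heterozygous channel, a ratio of −0.54 ± 0.21 or 1.45-fold lower. Among 2534 genes of its brightness 191 were as low. With median centring its ratio was −0.13, and −0.49 relative to genes of its brightness. Its probe overlaps in sequence with one of Tuba3a, a paralogue, and the pair is shown because the 2 probes have similar sequences. In the 45 bases the probes share, 34 are identical and the 11 that differ are in capitals. The Tuba8 probe lies at chr6:121188841-121188900 on the plus strand and the Tuba3a probe at chr6:125246707-125246766 on the minus strand of mm8.
Tuba8: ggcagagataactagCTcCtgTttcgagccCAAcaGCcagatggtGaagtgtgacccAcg
Tuba3a: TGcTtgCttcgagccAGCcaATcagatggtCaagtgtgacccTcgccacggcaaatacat
The Tuba3a probe shown read 15.40 in the homozygous channel against 15.19 in the heterozygous channel, a ratio of 0.21 ± 0.20, about the size of the scanner error. The second Tuba3a probe read 8.12 (homozygous) against 8.33 (heterozygous), a ratio of −0.21, so the gene value of 0.0003 is the midpoint of 2 opposite readings. The array annotation lists both Tuba3a probes for Tuba3b as well.

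The α-tubulins Tuba1a, Tuba1b and Tuba1c lie within 105 kb of each other on chromosome 15. Tuba1a read 16.03 in the homozygous channel against 15.94 in the heterozygous channel, a ratio of 0.09 ± 0.20. Tuba1b read 14.84 (homozygous) against 14.82 (heterozygous), a ratio of 0.01 ± 0.20, and Tuba1c read 16.42 (homozygous) against 16.39 (heterozygous), a ratio of 0.02 ± 0.21. None of the 3 differed beyond the scanner error as reported. By the scanner software's own log ratio Tuba1a was at −0.16 and Tuba1b at −0.0012, within it, and Tuba1c at −0.30, beyond it. The Tuba1b probe is listed for all 3 genes and cannot separate them. At the brightness of Tuba1c the median ratio of all genes was 0.44, and 27 of 245 genes there were as low as Tuba1c. Tuba4a had 3 probes that read 11.58, 10.48 and 15.10 in the homozygous channel against 11.40, 10.11 and 14.96 in the heterozygous channel, with ratios of 0.19, 0.37 and 0.15. All were slightly higher in the homozygous channel, and the gene value was 0.19 ± 0.20. The α-tubulin median was 0.02 as reported, −0.12 with the scanner software's log ratio and 0.85 with median centring, where Tuba1a reached 1.02.

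The 7 β-tubulin genes were all detected and had a median ratio of 0.15, and 6 were above 0. Tubb4b, the β-tubulin best known from ciliary axonemes and listed under the older name Tubb2c, read 13.69 in the homozygous channel against 13.67 in the heterozygous channel, a ratio of 0.02 ± 0.20. The scanner software's processed intensities of this spot were 7777 (homozygous) and 7309 (heterozygous). In this bulk RNA, which cells gave the Tubb4b signal was not tested. The probe, at chr2:25044995-25045054 on the minus strand, is shown because its reading was nearly equal in both lungs.
Tubb4b: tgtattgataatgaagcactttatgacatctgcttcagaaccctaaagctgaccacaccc
Tubb4a, an isotype of brain listed as Tubb4, read 13.21 (homozygous) against 12.86 (heterozygous), a ratio of 0.35 ± 0.21. Tubb3, the neuronal β-tubulin, read 10.25 (homozygous) against 10.10 (heterozygous), a ratio of 0.15 ± 0.21. It was spotted 10 times, and the 7 spots left after outliers ran from 0.12 to 0.19.

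Tubb5, a widely expressed β-tubulin, was the member with the highest ratio as reported. Its 2 probes read 16.38 and 16.37 in the homozygous channel against 15.86 and 15.84 in the heterozygous channel, with ratios of 0.52 each. The gene value of 0.52 ± 0.21 is 1.43-fold higher. Genes of this brightness had a median ratio of 0.26, and 72 of 268 were as high as Tubb5. With median centring the value was 1.46 beside 1.18 for genes of its brightness, and with the scanner software's log ratio it was 0.24. By that log ratio Ttll11, at 0.59, was the highest member and Tubb5 was not. Tubb2a, a paralogue, was read by 3 probes at 11.79, 14.61 and 15.63 in the homozygous channel against 11.53, 14.71 and 15.43 in the heterozygous channel, with ratios of 0.27, −0.10 and 0.20 and a gene value of 0.20 ± 0.20. One Tubb5 probe and the third Tubb2a probe share 25 bases, of which 22 are identical and 3, in capitals, differ. The Tubb2a probe is also listed for Tubb2b, Tubb3 and Tubb6. The probes lie at chr17:35443071-35443130 (Tubb5) and chr13:34082007-34082066 (Tubb2a), both on the minus strand.
Tubb5: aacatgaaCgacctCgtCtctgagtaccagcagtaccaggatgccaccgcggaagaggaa
Tubb2a: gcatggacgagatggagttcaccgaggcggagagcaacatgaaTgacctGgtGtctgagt
Tubb2b, which lies within 53.0 kb of Tubb2a on chromosome 13, read 12.01 (homozygous) against 11.86 (heterozygous), a ratio of 0.15 ± 0.20. Tubb6 was the β-tubulin below 0, at −0.12 ± 0.24, and its probes disagreed. One read 14.75 in the homozygous channel against 15.10 in the heterozygous channel (−0.36), and the other read 7.12 (homozygous) against 7.01 (heterozygous) (0.11). The first maps to the plus strand and is matched to a Tubb6 transcript. The second maps to the minus strand, is matched to no current RefSeq transcript and was assigned by gene symbol. Whether this second probe reads Tubb6 was not tested.

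**Figure D2:**
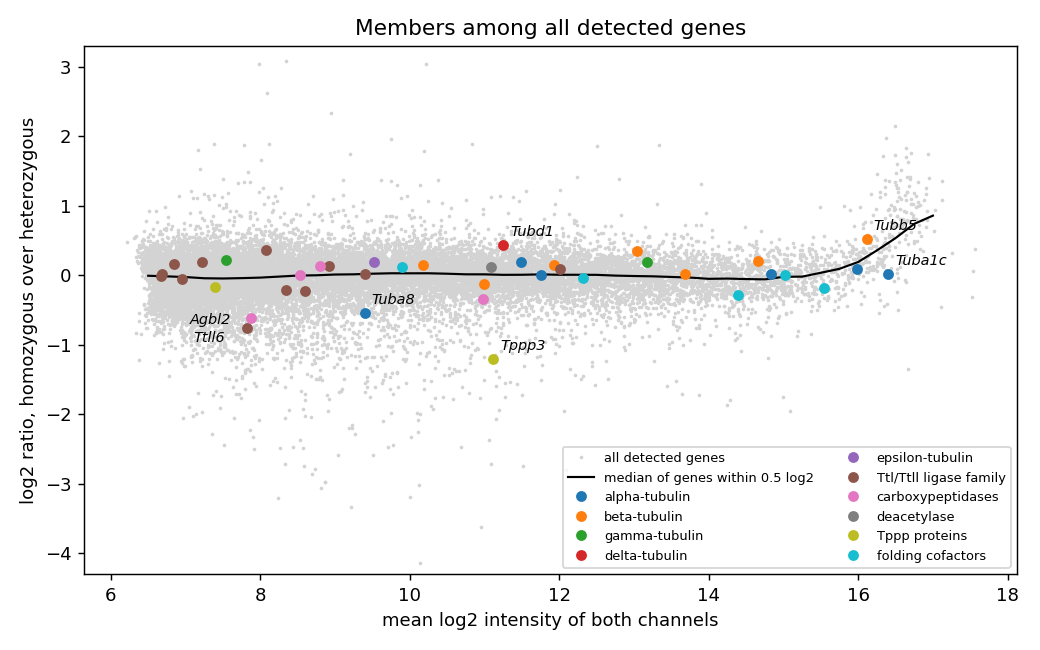
The log2 ratio of homozygous over heterozygous (vertical axis) is plotted against the mean log2 intensity of both channels for all detected genes (grey) and for the members (coloured by class), with the running median as a black line. Tppp3 lies well below the line, Tuba1c below it at the bright end, where the line rises, and Tubb5 above it.

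The rarer tubulins all had ratios above 0. Tubg1, the γ-tubulin of microtubule nucleation, read 13.27 in the homozygous channel against 13.08 in the heterozygous channel, a ratio of 0.19 ± 0.21. Tubg2 read 7.65 (homozygous) against 7.43 (heterozygous), a ratio of 0.22 ± 0.23. Neither difference exceeded the scanner error as reported, but the scanner software's own log ratios of 0.26 for Tubg1 and 0.41 for Tubg2 did. Tubd1, the δ-tubulin, read 11.46 (homozygous) against 11.03 (heterozygous), a ratio of 0.44 ± 0.21 or 1.35-fold higher, and 69 of 1912 genes of its brightness were as high. Tube1, the ε-tubulin, read 9.61 (homozygous) against 9.42 (heterozygous), a ratio of 0.19 ± 0.21, and its second probe was not well above background. Of all 17 tubulins, 15 were above 0 as reported, 12 with the scanner software's log ratio, the series matrix or a background offset of 0, and 16 with median centring. These settings also move the median of all genes, to 0.03 for the scanner's own ratio and for the matrix values, and to 0.22 for median centring. Above the all-gene median stood 15 tubulins as reported, 12 at offset 0, 11 by the scanner's own ratio, likewise 11 by the matrix values, and 14 after median centring.

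The folding cofactors, which assemble α- and β-tubulin into dimers after the chaperonin, were all detected, and 3 of 5 were below 0. Tbcc, which triggers release of the finished dimer, was the lowest. It read 14.25 in the homozygous channel against 14.53 in the heterozygous channel, a ratio of −0.28 ± 0.21. Tbca, which holds β-tubulin, read 15.44 (homozygous) against 15.63 (heterozygous), a ratio of −0.19 ± 0.21. Tbcb, which holds α-tubulin, was at 0.0018 and Tbcd at −0.04, while Tbce was the highest with 9.95 in the homozygous against 9.83 in the heterozygous channel and a ratio of 0.12 ± 0.21. The class median was −0.04 as reported and 0.59 with median centring.

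Other genes of the microtubule system were compared in 6 lists, and 0 of their detected genes passed the 2-fold threshold in either direction, where 1.88% of all detected genes were lower and 0.576% higher by that measure. With lists of this size a count of 0 is near that share. The 7 genes of the glutamylase complex and its axonemal partners had a median ratio of 0.16. They ran from −0.02 for Cep41, which helps bring glutamylase into cilia, to 0.59 for Tpgs2, a subunit of the complex, at 11.53 in the homozygous channel against 10.95 in the heterozygous channel. The 5 genes of tubulin acetylation and detyrosination had a median of 0.05, from −0.18 for Svbp to 0.37 for Vash2, which together remove the terminal tyrosine. The acetyltransferase Atat1, the counterpart of Hdac6 and named after its value was seen, was at 0.33. The chaperonin and prefoldin list held subunits of these complexes, which fold tubulin before the cofactors, and also Pdcl3, Arl2 and Tbcel. It had 18 of 18 genes detected and a median of 0.12, from −0.25 for Pfdn1 to 0.38 for Cct6a.

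The γ-tubulin ring complex list had 10 of 10 genes detected and a median of 0.11. Cdk5rap2, which anchors γ-tubulin at centrosomes, was lowest with 8.81 in the homozygous channel against 9.78 in the heterozygous channel, a ratio of −0.97 ± 0.22, and Mzt1 was highest at 0.58 ± 0.21. Of 14 severing and depolymerising proteins, 13 were detected with a median of −0.02. Stmn4 was lowest at −0.86 ± 0.23 and Fignl1, a severing ATPase, highest at 0.46. The neuronal stathmins Stmn3 and Stmn2, named after their values were seen, were at −0.77 and −0.67, and the widely expressed Stmn1 was at 0.44. Of 39 microtubule-associated proteins, 38 were detected with a median of 0.02. Saxo1, which stabilises axonemal microtubules, was lowest with 7.24 in the homozygous against 8.13 in the heterozygous channel, a ratio of −0.88 ± 0.25, and Dcx was highest at 0.38. Kif2b and Map6d1 were not detected. With median centring the 6 list medians lay between 0.14 and 0.78, and over all settings the severing list (−0.07 to 0.14) and the microtubule-associated list (−0.02 to 0.23) had medians on both sides of 0.

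**Figure D3:**
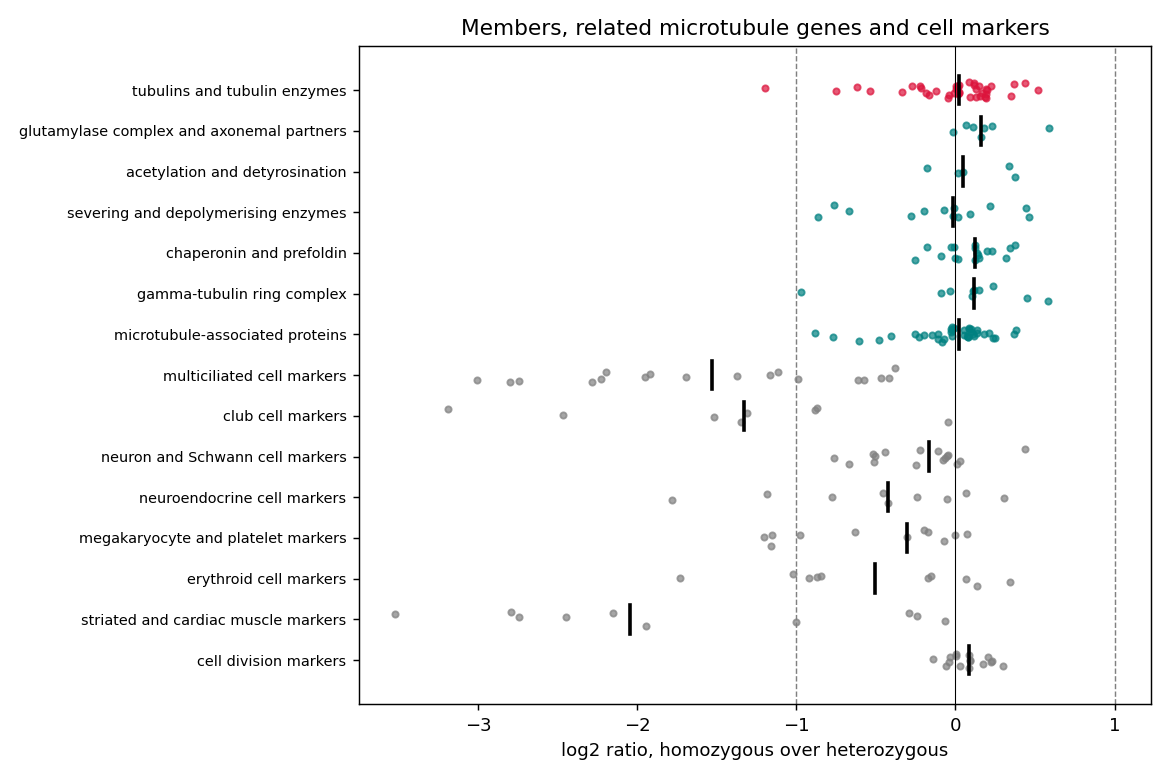
Points are detected genes by their log2 ratio of homozygous over heterozygous (horizontal axis), in rows for the members (red), related microtubule lists (teal) and cell type markers (grey), with black bars at medians and dashed lines at 2-fold. The members' median is 0.02 and that of the multiciliated cell markers −1.53.

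Markers of several cell types differed between the lungs. In bulk RNA, fewer cells of a type and less RNA per cell cannot be told apart. Of 19 multiciliated cell markers 18 were detected, all below 0 with 12 at least 2-fold lower. Over all detected genes these shares were 50.4% and 1.88%. The markers ran from −3.01 for Meig1 to −0.38 for Dnaic1, and Spag6 was not well above background. Foxj1 itself, the targeted gene, at −1.92, is part of this list and of its counts, median and sum. The sums of intensity given here weight a list towards its brightest probes, and Pf4, Alas2 and Uchl1 lead the platelet, erythroid and neuron sums in both channels. Each intensity in a sum also holds the offset of 50 from background correction, which narrows the difference between channels for lists of dim genes. For the multiciliated list the sum was 8767 in the homozygous channel against 36521 in the heterozygous channel. Club cell markers (8 of 8 detected) had a median of −1.33 and a sum of 87668 in the homozygous against 219396 in the heterozygous channel, of which Scgb3a2 alone gave 74.3% in the homozygous and 75.7% in the heterozygous channel. Striated and cardiac muscle markers (10 of 10 detected) had a median of −2.05 and a sum of 15699 in the homozygous against 46662 in the heterozygous channel, led by Actc1 with 69.8% in the homozygous and by Myl7 with 52.6% in the heterozygous channel. Neuroendocrine markers, 9 of 9 detected, had a median of −0.43 and a sum of 2261 in the homozygous against 4837 in the heterozygous channel. Megakaryocyte and platelet markers (11 of 12 detected, F2rl2 not, median −0.30) summed to 14381 in the homozygous against 23117 in the heterozygous channel. Erythroid markers (10 of 10 on the array detected, median −0.51) summed to 15528 in the homozygous against 39890 in the heterozygous channel. Neuron and Schwann cell markers, which include Stmn2 and Stmn3, had 16 of 20 detected, a median of −0.17 and a sum of 7609 in the homozygous against 8628 in the heterozygous channel, and Dbh and Th were among those not detected. Cell division markers (16 of 16 detected) had a median of 0.08 and a sum of 291318 in the homozygous against 269169 in the heterozygous channel. Across 10 other settings the median of the multiciliated list ran from −1.92 to −1.29, and each of the other marker medians kept its sign. The club cell median was −0.57 under median centring, short of 2-fold, and the erythroid median ran from −0.86 to −0.27. The cell division median was 0.68 under median centring. The part of these differences in the lower ratios of Tppp3, Ttll6, Agbl2 and Tuba8 was not tested.

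The 6 members at the extremes and near 0 were followed through each processing setting. Tppp3 and Tubb4b have other names in the scanner file and so no value under that naming. In the other settings Tppp3 stayed below −1 except under median centring, where it was −0.65. Across all settings Ttll6, Agbl2 and Tuba8 stayed below 0, and Tubb5 stayed above 0. Tubb4b stayed between 0.02 and 0.09 in the settings with a value, except under median centring, where it was 0.71.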

How the data were processed

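Both lungs were read as the channels of a single array, which was deposited as 2 byte-identical scanner files and counted once. Per the file headers, the deposited intensity values of spots and local background are linear, the processed intensity values had background removed and dyes balanced by the scanner software, and the deposited log ratio is the log10 of red over green, with an error. The submitters' processing notes name Agilent Feature Extraction 9.5.3.1 for this. The authors' series matrix was found, by comparison, to hold each sample's processed intensity multiplied by 1.68, with 15 as its lowest value (SD of the log2 factor 0.0176 for the homozygous and 0.0241 for the heterozygous column, against 0.529 and 0.528 for the opposite channel). Its column medians were 138.8 and 139.8, and why the factor was applied is unknown.

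Mean signals were corrected by normexp (offset 50), which draws ratios of dim probes towards 0, then loess was fitted within the array without weight on control spots. This used limma 3.58.1 in R 4.3.3 and was tested on simulated data, and Python 3.11.15, pandas 2.3.3, numpy 2.4.6 and matplotlib 3.10.9 did the rest. Then 169 outlier spots were dropped. Probes needed more than a 0.5 share of spots well above background in either channel, and each gene's ratio is the median over such probes, so levels of genes with several probes are given per probe. The members kept 63 of 78 probes, 57 of them above background in both channels, and 25 of the 41 detected members rest on a single probe. RefSeq names (assembly GRCm38.p6) were found through transcript accessions for 24367 probes (53 of the members'), through symbols for 6307 (20) and through synonyms for 2425 (5), while 8075 had to stay under the file's name. Coordinates of probes are those of mm8, as deposited. Promoters are RefSeq's, and Tppp3, Tubg1, Tubb2b, Tubb6, Ttll1 and Ttll11 have no entry among them.

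With 1 sample per group no p-value was computed, and the number of arrays limits the precision. Genes were named by a rule. It takes every member, with both channels for tubulins, for members at 0.5 or more in log2 ratio in either direction and for the extremes of a class, and the lowest and highest gene of each related list. Members, lists and alternatives were chosen with earlier results of these data known. Each result was recomputed under 9 other settings and under 1 more that was chosen after the values were seen, which used only member probes listed for 1 gene.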

Additional observations from a re-analysis of the deposited data

How the results depend on the processing

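No paired analysis was possible because each genotype had 1 sample, and no replicate could be left out. Over 10 alternative settings the count of members at least 2-fold lower was 1 except under median centring, where it was 0 and 2 members (Tuba1a at 1.02 and Tubb5 at 1.46) were at least 2-fold higher, and under the scanner file's gene names, where it was 0 because Tppp3 has another name there. Median centring moved the median of all detected genes to 0.22, and the medians to 0.51 for the members, 0.85 for α-tubulins, 0.73 for β-tubulins, 0.18 for carboxypeptidases and 0.59 for folding cofactors; the cause was not tested. Under the scanner file's names the carboxypeptidase median was −0.34 from 3 genes. The ligase family median stayed between −0.02 and 0.09. Single members moved beyond the scanner error in 28 of 41 cases under median centring, in 4 of 41 under the scanner software's log ratio and the series matrix, and in 1 without the filter on dim probes or with the brightest probe. Changes of sign were 8 under each of the first 3 settings and 4 with an offset of 0 or the brightest probe. Over all genes the 2-fold calls ran from 302 to 1143 lower and from 107 to 724 higher. They were 773 lower and 221 higher with an offset of 0, and 1139 lower and 457 higher with the series matrix. Low signal over background limits Ttll3, Ttll10 and Ttll13 most, whose scanner errors were 0.43, 0.36 and 0.47. The next largest errors among detected members were those of Ttll9 (0.31), Ttl (0.28) and Ttll11 (0.26), which have dim probes as well.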
